A study of Mus musculus with 6 samples.

Results

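The 10 genes described here, Pou5f1, Sox2, Nanog, Prdm14, Tfap2c, Lin28a, Dnd1, Dppa3, Utf1 and Sall4, are pluripotency and primordial germ cell genes measured by RNA-seq in the ovary of E15.5 mouse embryos. They are 10 of the 35976 gene names in the deposited counts. The genes were chosen by name, without a threshold on any measured value, but with earlier results of the same comparison of control and panobinostat-exposed ovaries known. Their levels and their differences between the groups are therefore a description and support nothing by themselves.

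Primordial germ cells keep a set of transcription factors and RNA-binding proteins that they share with pluripotent stem cells. In the fetal ovary the dividing female germ cells, the oogonia, lose these transcripts as they enter meiosis, while meiotic genes come on. In the mouse this exchange passes through the ovary as a wave, so a whole fetal ovary holds germ cells on both sides of it.

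Strand-specific libraries were made from polyadenylated RNA of 3 pools of control ovaries and 3 pools of PB-exposed ovaries, all of strain C57Bl6j and stage E15.5. PB is panobinostat, an inhibitor of histone deacetylases. In the PB group the pregnant mothers received 5 mg/kg from E6.5 to E15.5, and in the control group they received the DMSO and water vehicle over the same days. The question addressed was which transcripts differ in the ovary after this exposure of the embryo. The ovaries were pooled, so differences between single embryos are not seen. The labels give 4 ovaries per pool, the design text 6 to 8 and the methods at least 8. The labels also give the dose per day, whereas the methods give it for every other day. The design text describes every library, controls included, as coming from an exposed mouse, and the groups used here follow the library names and the treatment labels.

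The counts summed to 103627570, 125985399 and 97165644 in control 1, 2 and 3 and to 100650825, 104696262 and 120143093 in PB 1, 2 and 3. Levels are given as CPM, in which the counts of a gene are scaled to a common library size after TMM normalization. A floor of 3 counts corresponded to 0.0257 to 0.0319 CPM, and this floor covers counting error alone. All 10 genes lay above it in every pool.

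The pools of a group were not alike in germ cell transcripts. Ddx4, an RNA helicase of the germ line, was measured at 122, 89.7 and 130 CPM in control 1, 2 and 3 and at 124, 77.7 and 132 CPM in PB 1, 2 and 3. Dazl, a germ cell RNA-binding protein, had 298, 211 and 292 CPM in control and 304, 191 and 304 CPM in PB. Control 2 and PB 2 were thus the lowest pools of their groups for both genes. The values of the 10 genes and of the meiotic genes are given with all pools and also without these pools. In bulk tissue, fewer germ cells and less of a transcript per germ cell cannot be told apart.

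All 10 genes passed the filter on low counts, and for all 10 the estimate of edgeR's quasi-likelihood test was lower in PB than in control. Among the 19437 genes tested, 49.3% had an estimate below 0. The log2 fold changes lay between -0.74 and -0.37, with a median of -0.57, beside a median of 0.0020 over all genes tested. At an FDR of at most 0.05 and a fold change of at least 2, 0 of the 10 genes were called, beside 3 of all genes tested (0.0154%). Every one of the 10 had an FDR of 0.888. An unadjusted p-value under 0.05 was found for 8 of the 10, all lower in PB, beside 2.43% of all genes tested that were lower with such a p-value and 4.47% in either direction. DESeq2's Wald test likewise called 0 of the 10, beside 0.0539% of the genes it adjusted, and gave 8 of them an unadjusted p-value under 0.05, beside 2.04% of all genes in that direction. The count with such a p-value depended on which pool was left out, and it was 2 without control 1, without control 3 and without PB 1 alike. Since the genes were chosen with this comparison known, nothing is read from these shares.

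In CPM the 10 genes shared a part of their order over the pools. Control 2 was the lowest control pool for all 10 genes, at 0.484 to 0.695 of the mean of control 1 and control 3. All 3 PB pools lay below control 1 and control 3 for all 10 genes, beside 10.7% of all genes tested. Control 2 lay within the range of the PB pools for 6 of the 10 and below every PB pool for 2, Dppa3 and Nanog. The groups did not overlap for 2 genes, Lin28a and Utf1, beside 5.62% of all genes tested with every PB pool below every control pool. This count depended on the scale. In TPM, which also divides by exon length, control 2 lay below every PB pool for 7 genes, Lin28a among them. The groups then did not overlap for 1 gene, Utf1, whose values in control 2 and PB 1 were the same to the digits given. The share of all genes without overlap in TPM was not counted. In TPM too, all 3 PB pools lay below control 1 and control 3 for all 10 genes, beside 5.03%. In CPM the highest pool of a group exceeded the lowest 1.49 to 2.11 times in control and 1.04 to 1.62 times in PB.

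**Figure D1:**
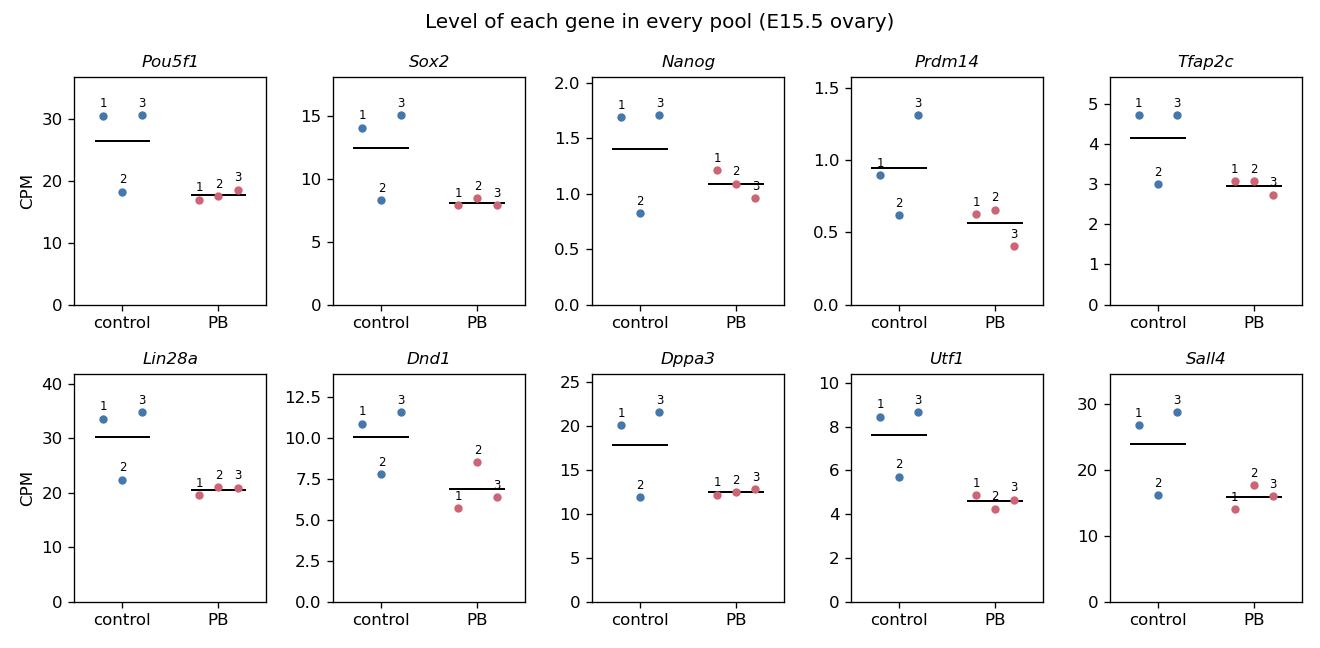
Level of each of the 10 genes in CPM on the vertical axis, by group on the horizontal axis. Each point is a pool with its number, and the line is the mean of the 3 pools. Control 2 is the lowest control pool for each gene, and control 1 and control 3 lie above the 3 PB pools.

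Pou5f1, Sox2 and Nanog encode the core transcription factors of pluripotency. Pou5f1, which encodes OCT4, is transcribed from chr17:35506032-35510777 on the plus strand of mm10. It was measured at 30.6, 18.3 and 30.7 CPM in control 1, 2 and 3 and at 17.0, 17.6 and 18.6 CPM in PB 1, 2 and 3. Control 1 and control 3 were high and the other 4 pools lay close together, so the groups overlapped through control 2 alone. Its log2 fold change was -0.58 (SE 0.20, edgeR FDR = 0.888).

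Sox2, an HMG-box factor that binds DNA together with OCT4, is a gene of 1 exon at chr3:34649995-34652461 on the plus strand. Its level was 14.1, 8.34 and 15.1 CPM in the control pools and 7.93, 8.46 and 7.93 CPM in the PB pools. Control 2 lay between the PB pools, and the PB pools differed from each other by at most 1.07 times. For Sox2 the log2 fold change was -0.63 (SE 0.22, edgeR FDR = 0.888).

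Nanog, a homeobox factor, lies at chr6:122706483-122714633 on the plus strand and was far less abundant. Control 1, 2 and 3 held 1.69, 0.823 and 1.71 CPM and PB 1, 2 and 3 held 1.21, 1.09 and 0.963 CPM. Control 2 was the lowest of all 6 pools. Nanog had the smallest log2 fold change of the 10 genes, -0.37 (SE 0.31), and an unadjusted edgeR p-value of 0.268.

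Prdm14 and Tfap2c act in the specification of primordial germ cells. Prdm14, a PR-domain regulator of their epigenetic reprogramming, lies at chr1:13113428-13127163 on the minus strand and was the least abundant gene of the 10. Its counts were 88, 72 and 123 in control and 62, 67 and 47 in PB, or 0.896, 0.618 and 1.31 CPM against 0.625, 0.656 and 0.404 CPM. Control 2 fell within the range of the PB pools. The log2 fold change was -0.74 with the widest error of the 10, an SE of 0.35, and the unadjusted edgeR p-value was 0.0718.

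Tfap2c encodes the AP-2 gamma transcription factor and lies at chr2:172545679-172558622 on the plus strand. It had 4.72, 3.00 and 4.71 CPM in the control pools and 3.07, 3.07 and 2.74 CPM in the PB pools. Control 2 again sat among the PB pools. The log2 fold change of Tfap2c was -0.49 (SE 0.20, edgeR FDR = 0.888).

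Lin28a and Dnd1 encode RNA-binding proteins. LIN28A blocks the maturation of let-7 microRNAs, and its gene lies at chr4:134003330-134019202 on the minus strand. Lin28a had 33.6, 22.4 and 34.8 CPM in the control pools and 19.5, 21.0 and 20.9 CPM in the PB pools. In CPM every PB pool lay below every control pool, but the gap between control 2 and the highest PB pool was small beside the gap between control 2 and the other controls. In TPM control 2, at 8.84, was below PB 1, 2 and 3, at 9.05, 9.06 and 9.65. Lin28a had a log2 fold change of -0.57 (SE 0.17, edgeR FDR = 0.888).

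Dnd1 binds the RNA of germ cells together with NANOS proteins and is needed for their survival. It lies at chr18:36763671-36766214 on the minus strand and was measured at 10.9, 7.81 and 11.6 CPM in control and 5.72, 8.52 and 6.38 CPM in PB. PB 2 was above control 2, and PB 1 and PB 3 were the lowest pools. For Dnd1 the log2 fold change was -0.55 (SE 0.20, edgeR FDR = 0.888). In the deposited annotation 38 exonic bases of Dnd1 are shared with Wdr55 on the opposite strand. Wdr55 had 22.0, 26.8 and 22.9 CPM in control and 21.7, 24.4 and 19.6 CPM in PB, so its highest pool was control 2, which was the lowest control pool for Dnd1. The libraries keep the strand.

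Dppa3, Utf1 and Sall4 encode chromatin-bound proteins. Dppa3, also called Stella, protects DNA methylation in the early embryo and marks primordial germ cells. It lies at chr6:122626424-122630271 on the plus strand, on the same chromosome as Nanog. Dppa3 had 20.1, 11.9 and 21.6 CPM in control and 12.2, 12.5 and 12.8 CPM in PB. Control 2 was below every PB pool, and the PB pools differed by at most 1.04 times, the smallest spread of the 10 genes. Dppa3 had a log2 fold change of -0.52 (SE 0.21, edgeR FDR = 0.888).

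Utf1, a chromatin-associated factor of undifferentiated cells, lies at chr7:139943856-139945112 on the plus strand. It was measured at 8.45, 5.71 and 8.66 CPM in the control pools and at 4.85, 4.25 and 4.65 CPM in the PB pools. The groups did not overlap in CPM, and in TPM control 2 and PB 1 both had 6.77 to the digits given. Its log2 fold change of -0.73 (SE 0.18) came with the smallest unadjusted edgeR p-value of the 10 genes, 0.00485, and with an FDR of 0.888.

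Sall4, a zinc-finger transcription factor of stem cells and germ cells, lies at chr2:168748332-168767201 on the minus strand. It had 26.8, 16.2 and 28.8 CPM in control and 14.0, 17.7 and 16.0 CPM in PB. Control 2 lay within the range of the PB pools. The log2 fold change of Sall4 was -0.59 (SE 0.22, edgeR FDR = 0.888). An antisense transcript, Gm14261, shares 290 exonic bases with Sall4 and held 11 counts over all 6 pools.

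Levels of different genes were compared as TPM, in which the counts of each transcript are divided by its exon length and scaled to the same total in every pool. In control the order of mean TPM ± SD of 3 pools was Dppa3 (32.2 ± 10.7), Pou5f1 (28.9 ± 8.96), Lin28a (12.8 ± 3.47), Dnd1 (10.1 ± 2.48), Utf1 (9.65 ± 2.51), Sox2 (7.48 ± 2.50), Sall4 (7.05 ± 2.28), Tfap2c (2.16 ± 0.604), Nanog (0.904 ± 0.340) and Prdm14 (0.536 ± 0.222). The order of mean TPM was the same in PB, from 24.0 ± 1.07 for Dppa3 to 0.340 ± 0.0779 for Prdm14. The ranges of the control pools overlapped between all neighbours in this order except between Pou5f1 and Lin28a, Sall4 and Tfap2c, and Tfap2c and Nanog. Within single pools the order was firmer. Dppa3 had more TPM than Pou5f1 in all 6 pools, Dnd1 more than Utf1 in 5, and Sox2 more than Sall4 in 4.

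The size of the estimates depended on single control pools. Without control 1 the log2 fold changes of the 10 genes had a median of -0.49 and ran from -0.77 to -0.22, with 2 of the 10 under an unadjusted edgeR p-value of 0.05, beside 1.87% of all genes in that direction. Without control 3 the median was -0.44 and the range -0.63 to -0.21, again with 2 of the 10, beside 2.16%. Nanog moved from -0.37 to -0.22 and -0.21 in these fits, and Prdm14 from -0.74 to -0.43 without control 3. Leaving out PB 1 gave estimates from -0.83 to -0.44 with 2 of the 10 at such a p-value, beside 1.53%, and leaving out PB 3 gave -0.74 to -0.29 with 3 of the 10, beside 1.57%. Leaving out control 2 moved every estimate away from 0. Without it the log2 fold changes of the 10 genes lay between -0.97 and -0.65, with a median of -0.77. Pou5f1 then had -0.79, Sox2 -0.85 and Utf1 -0.90. All 10 had an unadjusted edgeR p-value under 0.05, beside 2.08% of all genes in that direction. The FDRs lay between 0.132 and 0.985, so 0 of the 10 were called, beside 0.0251% of the genes tested. Without PB 2 the log2 fold changes lay between -0.87 and -0.37. Without PB 2, 5 of the 10 had an unadjusted p-value under 0.05, beside 4.90% of all genes in that direction, and 0 were called at FDRs of 0.251 to 0.707, beside 0.0454% of the genes tested.

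A fit without both control 2 and PB 2 was added after the data had been seen. These are the pools with the lowest sum of germ cell markers in their groups. The 10 log2 fold changes then lay between -1.10 and -0.64, with a median of -0.81, and 0 of the 10 were called, beside 0.0511% of the genes tested. The lowest FDR of the 10 was 0.0795, for Pou5f1 and for Lin28a, and the highest 0.415, for Nanog. All 10 had an unadjusted p-value under 0.05, beside 4.47% of all genes in that direction. With 2 pools a group and pools selected on germ cell transcripts, these values are a description.

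**Figure D2:**
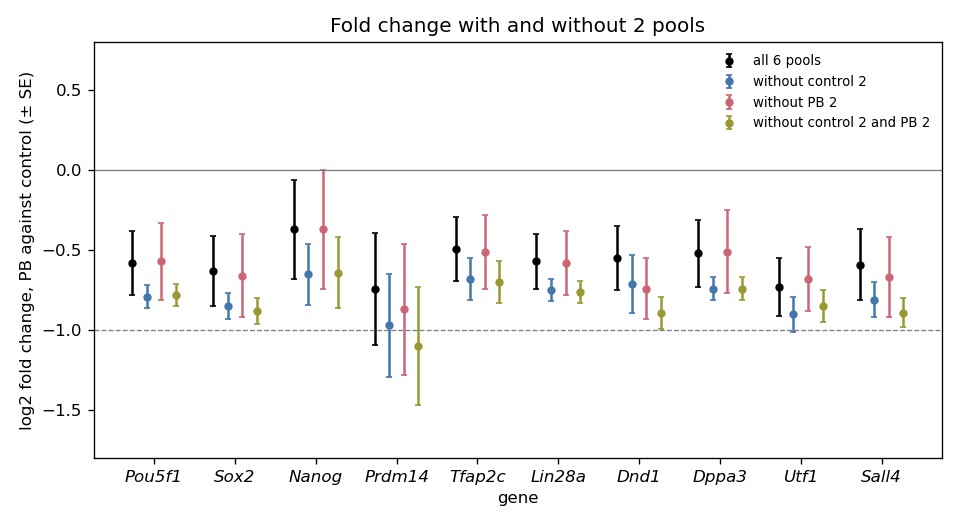
Log2 fold change of PB against control with its SE on the vertical axis for each of the 10 genes on the horizontal axis, with all 6 pools and without the pools named in the key. The grey line marks 0 and the dashed line a 2-fold lower level. The estimates are below 0 in each fit, and with all pools they lie between -0.74 and -0.37.

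The 10 genes were then set beside other transcripts of the germ line in the same pools. Their summed level was 152, 95.0 and 159 CPM in control 1, 2 and 3 and 86.2, 94.8 and 91.4 CPM in PB 1, 2 and 3. The 11 germ cell markers found, of 12 listed, summed to 807, 627 and 796 CPM in control and 900, 531 and 943 CPM in PB. Control 2 and PB 2 were low for this sum, while the 10 genes were low in control 2 and in all 3 PB pools. The most abundant of these markers was Dazl, and 0 of the 11 were at 0 counts in all pools.

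The ratio of the summed 10 genes to Ddx4 was 1.25, 1.06 and 1.22 in the control pools, in the order of their numbers, and 0.697, 1.22 and 0.693 in the PB pools. On this scale PB 2 lay with the controls, and PB 1 and PB 3 were low. Pou5f1 over Ddx4 was 0.251, 0.203 and 0.236 in control and 0.138, 0.227 and 0.141 in PB. PB 1 and PB 3 were below the other 4 pools for 9 of the 10 genes, the exception being Nanog. How many of all genes have this order over Ddx4 was not counted. Ddx4 itself was lowest in PB 2 and control 2, at 77.7 and 89.7 CPM, which raises the ratio in these pools for a gene that does not fall with Ddx4. Nothing is therefore read from this count. Against the whole marker list the ratio was 0.188, 0.152 and 0.200 in control and 0.0957, 0.179 and 0.0969 in PB. That list includes Sycp3, which is also among the meiotic genes below. Sycp3 had 172 and 184 CPM in PB 1 and PB 3, 81.2 CPM in PB 2 and 111 to 118 CPM in control. These ratios were chosen after the data had been seen and have no test.

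The 17 genes of meiotic entry and prophase summed to 1487, 1365 and 1497 CPM in control and 2060, 1079 and 2255 CPM in PB. PB 1 and PB 3 were the highest pools and PB 2 the lowest. PB 1 and PB 3 were also the pools with the lowest ratio of the 10 genes to Ddx4. Ddx4 itself was higher in them, at 124 and 132 CPM, than in PB 2, at 77.7 CPM, so nothing is read from this shared order. Smc1b, a meiotic cohesin subunit, had 448, 399 and 462 CPM in control and 626, 343 and 674 CPM in PB. Tex15, a germ cell gene required in meiotic prophase, had 85.0, 161 and 108 CPM in control and 288, 72.8 and 316 CPM in PB. With all pools, 0 of the 17 were called by edgeR, beside 0.0154% of all genes. An unadjusted p-value under 0.05 was found for 0 of the 17, beside 4.47% in either direction, and their median log2 fold change was 0.28. The list depended on single PB pools. Without PB 1 the median was 0.19 and without PB 3 it was 0.11. Without PB 2 the median was 0.54 and 15 of the 17 had an unadjusted p-value under 0.05, all higher in PB, beside 7.42% of all genes in that direction. Sycp1, Sycp2 and Sycp3, which encode synaptonemal complex proteins, then had an FDR of at most 0.05, beside 0.166% of all genes, at log2 fold changes of 0.53, 0.72 and 0.63, under the 2-fold change needed for a call. Tex15 passed that fold without PB 2, at 1.35, with an FDR of 0.157, so 0 of the 17 were called, beside 0.0454% of all genes. Without control 2 the median was 0.22, and without both pools 0.46, with a log2 fold change of 1.65 for Tex15 (edgeR FDR = 0.0720). With all pools the smallest p-values of this list were those of Tex15 and Rec8, a meiotic cohesin subunit, with log2 fold changes of 0.93 (SE 0.53) and -0.20 (SE 0.11). The part that the germ cell content or the meiotic stage of a pool has in the lower level of the 10 genes was not tested.

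**Figure D3:**
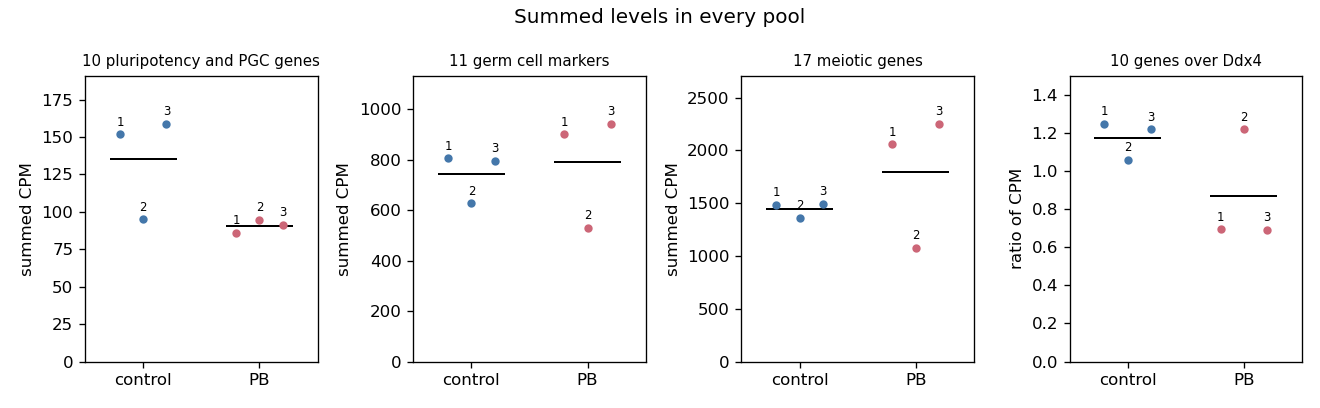
Summed CPM of the 10 genes, of 11 germ cell markers and of 17 meiotic genes, and the ratio of the 10 genes to Ddx4, on the vertical axes, by group on the horizontal axes. Each point is a pool with its number, and the line is the mean of the 3 pools. The ratio is 0.697 in PB 1 and 0.693 in PB 3, and 1.06 to 1.25 in the other 4 pools.

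The 11 germ cell markers had a median log2 fold change of -0.02. For 7 the estimate was below 0, beside 49.3% of all genes tested. The median ran from -0.15 without control 2 to 0.17 without PB 2 when 1 pool was left out. The most abundant, Dazl, Sycp3 and Ddx4, had -0.00, 0.34 and -0.04. By edgeR 0 were called, beside 0.0154% of all genes, and 1 was lower with an unadjusted p-value under 0.05, beside 2.43%. Without PB 2, 4 were higher with such a p-value, beside 7.42%. Dmrt1 and Rhox9 had the smallest p-values of this list. Dmrt1, a DM-domain transcription factor of the gonad that is transcribed in germ cells, was measured at 16.9, 10.1 and 16.6 CPM in control and 10.3, 9.41 and 10.5 CPM in PB. As for the 10 genes, control 2 was its lowest control pool and all 3 PB pools lay below control 1 and control 3. Its log2 fold change was -0.52 (SE 0.20, edgeR FDR = 0.888). Rhox9, a homeobox gene of the X chromosome, had 21.9, 12.0 and 18.6 CPM in control and 12.7, 11.3 and 14.3 CPM in PB. Sycp3, a synaptonemal complex protein on both lists, had 118, 111 and 116 CPM in control and 172, 81.2 and 184 CPM in PB.

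The profile of Pou5f1 over the 6 pools was compared with those of 14781 other genes with a mean of at least 1 CPM, by the Euclidean distance between centred log2 CPM. The 5 nearest were Dppa3 (distance 0.128), Lin28a (0.131), Dmrt1 (0.147), Sox2 (0.162) and Rhox5 (0.191). Thus 3 of the nearest 5 are among the 10 genes, whose ranks otherwise ran from 7 for Sall4 to 75 for Nanog. Prdm14 was under the minimum level. Rhox5, a homeobox gene of the X chromosome, had 24.1, 14.1 and 21.5 CPM in control and 13.1, 12.8 and 15.4 CPM in PB. The distance rests on 6 pools and says nothing of shared function.

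Of 40 other pluripotency and primordial germ cell genes, 35 were tested and 30 had an estimate below 0, beside 49.3% of all genes tested, with a median log2 fold change of -0.16. The median ran from -0.21 without control 2 to -0.10 without control 3 when 1 pool was left out. By edgeR 0 were called, beside 0.0154% of all genes, and 6 had an unadjusted p-value under 0.05, all of them lower in PB, beside 2.43%. Dppa4, a chromatin-binding factor of pluripotent cells, had 5.84, 4.24 and 6.64 CPM in control and 3.69, 2.74 and 3.65 CPM in PB, with no overlap of the groups in CPM and a log2 fold change of -0.73 (SE 0.21). In TPM control 2, at 3.80, was below PB 1 and PB 3, at 3.90 and 3.86. Kit, the receptor of KIT ligand on germ cells, had 55.1, 51.8 and 53.3 CPM in control and 43.2, 46.9 and 41.1 CPM in PB, with no overlap in CPM or, by a narrow gap of 13.8 in control 2 to 13.6 in PB 2, in TPM. Its log2 fold change was -0.29 (SE 0.06, edgeR FDR = 0.888), and in CPM control 2 did not stand apart for Kit. The most abundant of the list, Ifitm1, and Mycn had log2 fold changes of -0.12 and -0.10. Tdgf1 and Otx2 were at 0 counts in every pool.

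On the LIN28 and let-7 axis 14 genes were tested and 0 were called, beside 0.0154% of all genes. Only 1, Arid3a, had an unadjusted edgeR p-value under 0.05, lower in PB, beside 2.43% of all genes in that direction. The median log2 fold change was 0.02. Ago2, Dis3l2 and Drosha, which act in microRNA function and processing, had 0.08, 0.05 and -0.01. Hmga2, a let-7 target, had 0.14 (SE 0.06), and Arid3a had -0.20 (SE 0.08). The lowest estimate of the axis was that of Trim71, a let-7 target, at -0.33 (SE 0.17).

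Of 23 partners and relatives of the 10 proteins 0 were called by edgeR, beside 0.0154% of all genes. An unadjusted p-value under 0.05 was found for 0 of them, beside 4.47% in either direction, and their median log2 fold change was -0.05. The most abundant, Chd4, Cnot1 and Dnmt1, had 0.07, 0.06 and -0.09. Sox15, a relative of Sox2, had -0.81 (SE 0.40) at a mean of 0.561 CPM in control, and Sall2, a relative of Sall4, had 0.11 (SE 0.06).

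Markers of somatic cells were set beside the 10 genes. The 10 pregranulosa markers summed to 1534, 1435 and 1396 CPM in control and 1516, 1466 and 1358 CPM in PB, with 0 called and a median log2 fold change of -0.01. Gata4, Wt1 and Wnt4 led them, at means of 311, 280 and 229 CPM in control. These sums did not separate control 2 from the other controls as the 10 genes did. The median log2 fold change was -0.27 for 7 mesonephric markers and -0.14 for 9 endothelial and blood cell markers, led by Hba-a1. Emx2, the most abundant mesonephric marker, had a log2 fold change of 0.01, Epcam -0.27 and Pax8 0.06. Cdh16, a cadherin of tubule epithelium, had 2.72, 3.34 and 14.8 CPM in control and 2.93, 3.87 and 1.90 CPM in PB, so control 3 stood apart. The median of the mesonephric list was -0.02 without control 3, -0.46 without control 1 and -0.50 without control 2. With all pools, 0 genes of these lists were called by edgeR, beside 0.0154% of all genes, and 0 had an unadjusted p-value under 0.05, beside 4.47%. The blood list varied most in control, with sums of 7339, 9897 and 2833 CPM against 6096, 6285 and 6258 CPM in PB. Its smallest p-values were those of Hbb-y and Hba-x, embryonic globin genes. Hbb-y had 233, 175 and 238 CPM in control and 136, 204 and 132 CPM in PB, with control 2 the lowest control pool and PB 2 above it. Its log2 fold change was -0.45 (SE 0.20, edgeR FDR = 0.888), and without control 2 and PB 2 it was -0.81 (edgeR FDR = 0.0325), under the 2-fold change needed for a call. Hba-x had a log2 fold change of -0.24, and Alas2, an enzyme of heme synthesis in red cells, had -0.28, which turned to 0.09 without control 2. The part of blood cell content in the levels of the 10 genes was not tested.

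The 10 genes carry 25 transcripts in the deposited annotation, all matching RefSeq models, of which 20 had counts and 14 were tested. By edgeR 0 of the 14 were called, beside 17 of 51227 transcripts (0.0332%), and 2 had an unadjusted p-value under 0.05, beside 3.56% of all transcripts. DESeq2 also called 0 of the transcripts of these genes, beside 1.85% of the transcripts it adjusted. Each of Pou5f1, Sox2, Prdm14, Lin28a, Dnd1, Dppa3 and Utf1 had 1 transcript that held at least 99.8% of its counts.

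Nanog, Sall4 and Tfap2c divided their counts among transcripts with different first exons. For Nanog, NM_028016.3, whose first exon is chr6:122707565-122707933, had 137, 96 and 122 counts in control and 61, 0 and 53 in PB. XM_006506651.2, with a first exon upstream at chr6:122706483-122707318, had 29, 0 and 0 counts in control and 59, 111 and 59 in PB. XM_011241473.1, which begins at the same base, had 39 counts in control 3 and 0 in the other pools, so this upstream start held 29, 0 and 39 counts in control. The log2 fold changes of NM_028016.3 and XM_006506651.2 were -1.70 (SE 1.57) and 2.88 (SE 2.01), each with an edgeR FDR of 1.000, so neither was called. Every PB pool was below every control pool for NM_028016.3 and above for XM_006506651.2. The share of all transcripts that separate in this way was not counted, so nothing is read from this order.

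For Sall4, NM_175303.4 held 1775, 1513 and 1839 counts in control and 796, 350 and 1272 in PB, and XM_006500486.3, with another first exon, 703, 300 and 870 in control and 476, 1454 and 450 in PB. The division turned over in PB 2 alone, while the sum of Sall4 in PB 2 was 17.7 CPM, close to the other PB pools. For Tfap2c, NM_009335.2 held 347, 279 and 440 counts in control and 190, 226 and 242 in PB, and NM_001159696.1 held 111, 65 and 4 in control and 114, 45 and 74 in PB. How reads were shared out between overlapping transcripts was decided by StringTie, and these transcript counts depend on it.

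Promoters are shown to give the sequence in front of the starts of these genes, and no regulation was tested. RefSeq promoter sequences of build GRCm38.p6 were matched for 5 of the 10 genes, Pou5f1, Sox2, Nanog, Lin28a and Utf1, with 7 start sites. Dppa3, Dnd1, Sall4, Tfap2c and Prdm14 were not matched. The 250 bases before each start were searched on both strands for the octamer ATGCAAAT, its core TTTGCAT, the SOX site CATTGT, the E-box CACGTG and the GC box GGGCGG. The octamer contains the core in reverse complement, so a match to the octamer is also a match to the core. Among all 32851 promoters of the table, 1.60%, 4.12%, 10.7%, 6.02% and 32.7% held them, in this order. A match describes the letters and shows no binding.

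The octamer core was found before Nanog and Sox2, the SOX site before Nanog, Lin28a and the downstream start of Pou5f1, and the GC box before Pou5f1, Sox2 and Utf1. The octamer and the E-box were found in 0 of the 7. The downstream start of Pou5f1 is that of NM_001252452.1, which held 2 counts over all pools, or 0.0146% of the counts of Pou5f1. Before the start of Nanog at 122707489 the core, at bases 75 to 69 before the start, and a SOX site on the opposite strand, at bases 67 to 62, are separated by 1 base. This start is that of NM_001289831.1, which held 0 counts in every pool. Counted from the start of NM_028016.3, at 122707565, the same core lies at bases 151 to 145 and the SOX site at bases 143 to 138. The stretches below are the 150 bases before the start, 5′ to 3′ on the strand of the gene, with these motifs in capitals. They overlap 0 exons of the deposited annotation.
Nanog, chr6:122707339-122707488, plus strand: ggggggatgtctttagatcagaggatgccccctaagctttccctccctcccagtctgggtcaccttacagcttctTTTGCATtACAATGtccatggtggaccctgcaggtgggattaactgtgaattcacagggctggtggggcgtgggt
Sox2, chr3:34649845-34649994, plus strand: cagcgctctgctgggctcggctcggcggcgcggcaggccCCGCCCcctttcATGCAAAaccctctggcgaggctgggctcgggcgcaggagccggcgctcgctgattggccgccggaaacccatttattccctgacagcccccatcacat
Lin28a, chr4:134018817-134018966, minus strand: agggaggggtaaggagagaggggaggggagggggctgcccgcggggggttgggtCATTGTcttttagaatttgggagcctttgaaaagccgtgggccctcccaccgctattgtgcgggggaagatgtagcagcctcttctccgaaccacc
Utf1, chr7:139943706-139943855, plus strand: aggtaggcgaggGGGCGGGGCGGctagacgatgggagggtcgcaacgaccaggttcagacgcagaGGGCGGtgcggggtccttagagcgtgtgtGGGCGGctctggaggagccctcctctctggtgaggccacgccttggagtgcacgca
Pou5f1, chr17:35505882-35506031, plus strand: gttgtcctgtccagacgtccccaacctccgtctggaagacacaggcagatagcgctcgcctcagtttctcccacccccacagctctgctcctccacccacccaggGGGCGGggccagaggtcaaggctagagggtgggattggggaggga

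In Nanog the stretch lies in the first intron of XM_006506651.2. In Sox2 the core is on the opposite strand, so the stretch shows its reverse complement ATGCAAA, and a GC box on the opposite strand lies upstream of it, while another GC box, at bases 223 to 218 before the start, is outside the stretch. Utf1 has 4 GC boxes in its stretch, of which the first 2 overlap by 1 base.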

How the data were processed

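RNA-seq of 3 control and 3 PB pools was analysed from the transcript counts that the authors deposited. The submitters' processing notes name bcl2fastq 2.17.1.14, HISAT2 2.1.0, StringTie 1.3.5, DESeq2 1.30.0 and the mm10 build. The deposited annotation gave names, positions, exon lengths and class codes. The authors' comparison columns (fold changes, p-values) and 6 normalized per-pool columns were not used.

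Counts of all transcripts with the same gene name were summed. A name was missing for 1490 of 114412 transcripts, which held 3.05% to 4.49% of the counts of a pool and were left out of gene sums. Genes and transcripts were tested in whole tables with edgeR 4.0.16 in R 4.3.3 (TMM, filterByExpr at its count minimum of 10 and total minimum of 15, quasi-likelihood F-test, Benjamini-Hochberg FDR). The SE is the log2 fold change divided by the square root of F. The biological coefficient of variation was 20.95% for genes and 98.41% for transcripts. CPM used the scaled libraries, and TPM the exon lengths over all transcripts. Both fitting functions were tested on simulated data. No batch is named in the labels, and p-values measure the spread between pools.

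The alternatives were DESeq2 1.42.0, its size factors, no filter, a stricter filter, an FDR of 0.1, no minimum fold change, a block for the replicate number, only transcripts matching RefSeq, StringTie locus sums, TPM for CPM, leaving out each pool, and, added after the data were seen, leaving out control 2 and PB 2 together.

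The 10 genes and all gene lists were chosen with earlier results of these data known. Genes named are the 10, their transcripts with at least 10% of the counts, per list reported the 3 most abundant and the 2 with the smallest p-values, the 5 genes nearest to Pou5f1, and genes sharing exons with the 10. Tdgf1, Otx2, Trim71, Sycp1, Sycp2 and 3 transcripts under that share (XM_011241473.1, NM_001289831.1, NM_001252452.1) were named after their values were seen. Tut4 and Tut7 were counted under their older symbols Zcchc11 and Zcchc6, and Gcna was not analysed here. A further list of cell type markers is not reported here.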

Additional observations from a re-analysis of the deposited data

How the results depend on the processing

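The log2 fold change of each of the 10 genes was below 0 in all 14 alternative fits, or 140 of 140 values, which ranged from -1.10 to -0.21. The number of the 10 with an unadjusted p-value under 0.05 was 8 as reported and 2 to 10 when 1 pool was left out. It was 4 with the replicate block, 4 with StringTie locus sums and 6 with known transcripts. For the block, locus sum and known transcript fits the share of all genes with such a p-value was not counted. The number of the 10 genes called was 0 in each fit, and the number of their transcripts called was 0 in each fit made on transcripts. The lowest FDR in any fit was 0.0795, for Pou5f1 without control 2 and PB 2. By DESeq2 the FDRs of the 10 genes ran from 0.0925 to 1.000. The ratio of group levels moved by less than the spread between pools for all 10 genes when TPM replaced CPM.

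The number of all genes called moved from 3 to 11 with DESeq2, 8 with known transcripts, 11 with StringTie locus sums, 5 with no minimum fold change and 10 without control 2 and PB 2, and it ranged from 3 to 9 when 1 pool was left out. The number of transcripts called moved from 17 to 1172 with DESeq2 and ranged from 0 to 19 when 1 pool was left out. Fewer samples entered the fits without pools. For the other changes the cause was not tested.

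With the replicate number as a block (replicate block), 0 genes and 0 transcripts were called, and the 10 genes had log2 fold changes from -0.71 to -0.31. The deviations of same-numbered pools from their group means correlated at 0.0933, 0.147 and -0.0179, and not every pool correlated best with its own number. The highest of these, 0.147, was between control 2 and PB 2, the lowest pools of their groups for Ddx4 and Dazl. With 3 pools a group these correlations cannot show whether the pools were paired, so nothing is concluded on pairing.

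With 3 pools a group the estimates of Prdm14 and Nanog, at about 1 CPM, rest on the fewest counts, and their SEs were the largest of the 10. Control 2 was the lowest control pool for each of them, and the fit without both control 2 and PB 2 was chosen after seeing the data.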
